A study of Mus musculus with 13 samples.

Results

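The 48 genes described here encode the machinery that copies nuclear DNA, and they were followed in whole mouse bone marrow after blood was withdrawn. They comprise 9 genes of origin licensing, 17 of the fork helicase, its activation and fork stability, 18 of the polymerases, clamp and strand joining, and 4 of nucleotide supply. A gene was represented by a probe set annotated to it alone, and where it had several, by that of highest mean level over the 13 arrays. All 48 were measured, among 19938 genes in all. The mice were C57BL/6 males, 6 weeks old and kept on standard chow, and femurs were taken at baseline (control, 3 arrays) or 4 h (1 array), 9 h (3 arrays), 12 h (2 arrays), 15 h (2 arrays) or 48 h (2 arrays) after 500 µL of blood was drawn by retro-orbital puncture. The labels used here describe no sham bleed for the controls, do not give the hour of day, and do not say whether replicates of a time came from separate animals, so p-values reflect only how far these samples spread, and that spread may be technical. Levels are log2 values from Affymetrix Mouse Gene 1.0 ST arrays.

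Replication starts at origins, where the origin recognition complex, with Cdc6 and Cdt1, loads the Mcm2 to Mcm7 ring onto DNA before S phase. Kinases, Cdc45 and the GINS complex then turn the ring into an active helicase, and polymerases, the sliding clamp and a ligase build and join the new strands. Many of these genes are transcribed at the entry to S phase under E2F factors. In the marrow, dividing erythroid and granulocyte precursors carry out much of the DNA synthesis, and blood loss is known to drive erythropoiesis.

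The titles of the arrays carry numbers that fall into 2 runs. The larger run held 10 arrays with a median level of 7.31 to 7.41, and the smaller held 3 (control replicate 3 and 9 h replicates 1 and 2) with a median of 8.16 to 8.17, so all comparisons were made with a term for the run. In the smaller run 19 of the 48 genes had a value that occurred more than once among the 3 arrays, and 10 had 1 value on all 3, against 0 repeated values in the larger run; over all genes, 75.6% had a repeated value in the smaller run. The term for the run takes out a shift in level, not a difference in spread. All 13 arrays, those of the smaller run included, enter the shared estimate of spread behind every SE and p-value. Arrays also differed in transcripts of other tissues. Liver marker genes averaged 7.57 and 7.14 on the 48 h arrays against 5.86 and 5.94 on the controls of the larger run. Small intestine markers averaged 9.74 on the 4 h array against 6.39 and 6.36 on those controls, and skeletal muscle markers 9.69 against 7.995 and 7.911. The intestine markers averaged less than on those controls, 5.57 to 5.83, on every array of the larger run from 9 h to 48 h. Muscle markers were also above those controls on 48 h replicate 1 (8.91) and 9 h replicate 3 (8.69), and below them on 48 h replicate 2 (7.08). Among the replication genes, control replicate 2 lay above control replicate 1 in 40 of 48, with a median gap of 0.17, whereas the median gap over all genes was 0.01. The gap was not particular to them. Mitosis genes averaged 10.63 and 10.90 on control replicates 1 and 2, and erythroid marker genes 11.19 and 11.69. Some other lists, such as B-lineage markers (9.705 and 9.64), averaged lower on control replicate 2.

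At 48 h nearly all of the replication genes were measured above control by a small amount. The fitted difference was positive for 47 of 48, with a median log2 fold change of 0.27 (1.21-fold) and a range of -0.04 to 0.45, against a median of 0.01 over all genes. One member rose past the threshold of an adjusted p under 0.05: Orc5, a subunit of the origin recognition complex, where 0.326% of all genes were called higher and 0.0502% lower. Both 48 h arrays lay above both controls of the larger run for 41 of the 48 genes, where 24.2% of all genes did so, and 0 members lay wholly below, where 16% of all genes did. At an unadjusted p under 0.05, 34 members were higher and 0 lower, where 9.31% of all genes were higher and 4.68% lower. In bulk marrow, more cells of a dividing type and more RNA per cell cannot be told apart. Marker lists of other tissues and cell types also differed at 48 h. Of 12 liver genes 9 rose, with a median of 1.37, and of 15 small intestine genes 4 fell, with a median of -0.40. The intestine difference was not particular to 48 h. Its median was also negative at 9 h (-0.38), 12 h (-0.48) and 15 h (-0.33) against control. None of the 16 erythroid markers passed the threshold, but all 16 had positive differences, with a median of 0.31. None of the 5 early granulocyte markers passed, and all 5 were negative, with a median of -0.27. B-lineage markers had a median of -0.27, with 12 of 13 negative and none past the threshold. The part of these lists in the replication result was not tested.

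**Figure D1:**
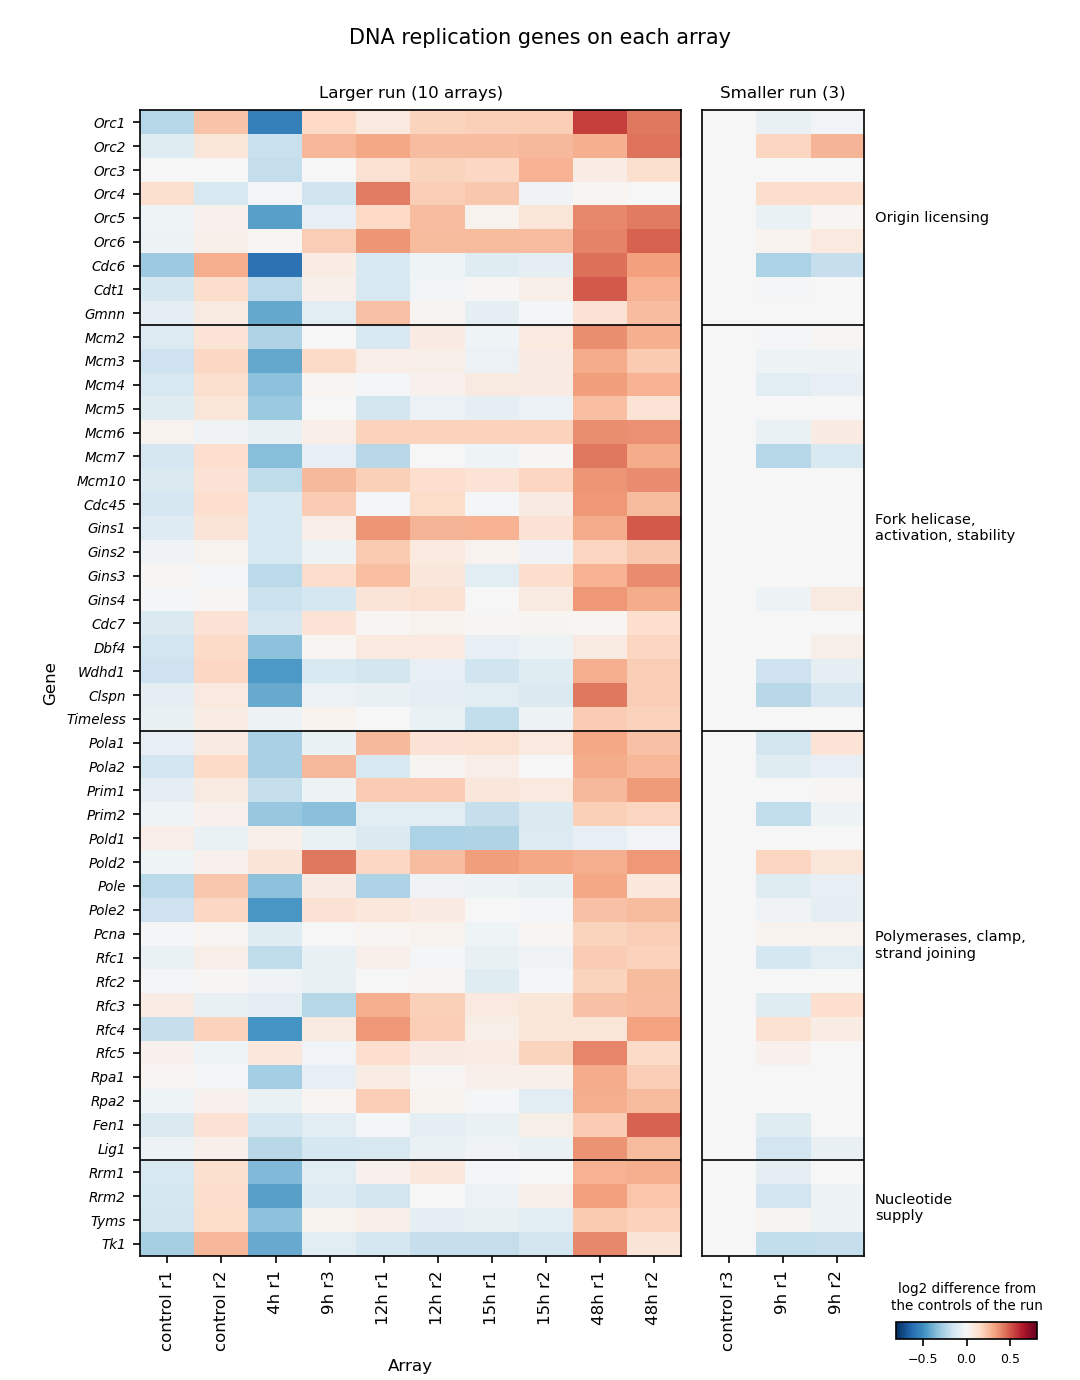
Colour gives each gene's log2 level minus the mean of the controls of its own run, for the 48 genes (vertical axis) on the 10 arrays of the larger run and the 3 of the smaller run (horizontal axis). The 48 h columns are positive for 47 and 46 of the genes, and the 4 h column for 4.

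Levels of single genes given from here on are those of the larger run unless the smaller run is named. Fitted differences come from all 13 arrays. Origin licensing genes had a median difference of 0.35 between 48 h and control, and all 9 were positive. Orc5 measured 9.11 and 9.18 on the controls of the larger run, 8.71 at 4 h, 9.08 at 9 h, 9.30 and 9.39 at 12 h, 9.17 and 9.24 at 15 h, and 9.53 and 9.56 at 48 h. In the smaller run it measured 10.14 on the control and 10.08 and 10.15 at 9 h. The 48 h arrays were the highest of the larger run, the 4 h array the lowest, and the 48 h and control groups did not overlap. The 48 h difference was 0.41 ± 0.07 (SE; 1.32-fold; limma, Benjamini-Hochberg adjusted p = 0.0438). Orc6, another subunit of the same complex, measured 10.34 and 10.43 on the controls, 10.40 at 4 h, 10.58 at 9 h, 10.74 and 10.64 at 12 h, 10.64 and 10.63 at 15 h, and 10.79 and 10.86 at 48 h. Its 48 h arrays lay above every other array of the larger run, and its 12 h and 15 h arrays lay between them and the controls. That difference was 0.41 ± 0.08 (limma, adjusted p = 0.0538), just outside the threshold. The highest difference belonged to Orc1, the subunit whose abundance is known to follow the cell cycle. Its levels were 8.44 and 8.90 on the controls, 8.12 at 4 h, 8.83 at 9 h, 8.75 and 8.85 at 12 h, 8.86 and 8.87 at 15 h, and 9.22 and 9.09 at 48 h. The controls were far apart, so the difference of 0.45 ± 0.12 had an adjusted p of 0.160 (limma). Cdc6, the loading factor, also had controls far apart. It measured 8.40 and 8.98 on the controls, 8.10 at 4 h, 8.75 at 9 h, 8.56 and 8.65 at 12 h, 8.59 and 8.61 at 15 h, and 9.13 and 9.02 at 48 h, a difference from control of 0.34 ± 0.15 (limma, adjusted p = 0.338). The smallest difference in the role was that of Orc4, with 8.43 and 8.18 on the controls, 8.29 at 4 h, 8.15 at 9 h, 8.71 and 8.50 at 12 h, 8.52 and 8.27 at 15 h, and 8.32 and 8.30 at 48 h. Its 48 h arrays fell within the range of the controls (0.06 ± 0.12, limma, adjusted p = 0.870).

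Helicase, activation and fork stability genes had a median difference of 0.29, all 17 positive, and 15 had both 48 h arrays above both controls. Mcm6, a subunit of the helicase ring, measured 11.05 and 10.996 on the controls, 10.96 at 4 h, 11.08 at 9 h, 11.21 and 11.20 at 12 h, 11.21 and 11.21 at 15 h, and 11.39 and 11.39 at 48 h. Replicates were close to each other and the 48 h arrays stood above all others of the larger run. The difference from control was 0.36 ± 0.07 (limma, adjusted p = 0.0597). Another ring subunit, Mcm2, measured 10.92 and 11.13 on the controls, 10.78 at 4 h, 11.02 at 9 h, 10.89 and 11.09 at 12 h, 10.99 and 11.10 at 15 h, and 11.39 and 11.31 at 48 h. Its 48 h arrays were again the highest (0.33 ± 0.09, limma, adjusted p = 0.169). Gins4, a subunit of the GINS complex that joins the ring in the active helicase, measured 10.44 and 10.47 on the controls, 10.28 at 4 h, 10.31 at 9 h, 10.56 and 10.58 at 12 h, 10.46 and 10.53 at 15 h, and 10.80 and 10.75 at 48 h. No other group overlapped with its 48 h arrays (0.35 ± 0.07, limma, adjusted p = 0.0884). The highest difference of the role was that of Gins1, a partner of Gins4 in the same complex, with 8.88 and 9.08 on the controls, 8.85 at 4 h, 9.03 at 9 h, 9.33 and 9.26 at 12 h, 9.26 and 9.10 at 15 h, and 9.28 and 9.48 at 48 h. The 48 h and 12 h arrays overlapped, and both lay above the controls (0.39 ± 0.09 at 48 h, limma, adjusted p = 0.127). Cdc7, the kinase that with Dbf4 triggers origin firing, had the lowest difference. It measured 7.93 and 8.16 on the controls, 7.91 at 4 h, 8.15 at 9 h, 8.06 and 8.07 at 12 h, 8.05 and 8.07 at 15 h, and 8.07 and 8.18 at 48 h. Its control and 48 h ranges overlapped (0.06 ± 0.08, limma, adjusted p = 0.801).

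Polymerase, clamp and strand-joining genes had a median difference of 0.24, and 17 of 18 were positive. Lig1 encodes the ligase that seals the fragments of the lagging strand. It measured 9.77 and 9.84 on the controls, 9.58 at 4 h, 9.66 at 9 h, 9.67 and 9.75 at 12 h, 9.78 and 9.75 at 15 h, and 10.17 and 10.06 at 48 h. In the smaller run it measured 10.77 on the control and 10.62 and 10.71 at 9 h. The 48 h arrays stood above all others of the larger run, and the controls lay close to the 12 h and 15 h arrays. Against control the difference was 0.31 ± 0.07 (limma, adjusted p = 0.119). Prim1, the catalytic subunit of primase, measured 9.76 and 9.91 on the controls, 9.64 at 4 h, 9.80 at 9 h, 10.04 and 10.04 at 12 h, 9.93 and 9.91 at 15 h, and 10.09 and 10.18 at 48 h. Its highest values were those of 48 h, with the 12 h arrays next (0.31 ± 0.07 against control, limma, adjusted p = 0.119). Fen1, the nuclease that trims the flaps of lagging-strand fragments, had the highest difference of the role. It measured 8.49 and 8.72 on the controls, 8.46 at 4 h, 8.51 at 9 h, 8.59 and 8.53 at 12 h, 8.55 and 8.65 at 15 h, and 8.81 and 9.07 at 48 h. Its 48 h arrays lay above all the others but apart from each other (0.34 ± 0.10, limma, adjusted p = 0.185). Pcna, the sliding clamp, measured 13.11 and 13.14 on the controls, 13.02 at 4 h, 13.12 at 9 h, 13.14 and 13.15 at 12 h, 13.09 and 13.14 at 15 h, and 13.30 and 13.32 at 48 h. All arrays other than those of 48 h were close together, and the 48 h difference was 0.19 ± 0.06 (limma, adjusted p = 0.220). Pole, the catalytic subunit of the leading-strand polymerase, measured 9.31 and 9.74 on the controls, 9.19 at 4 h, 9.59 at 9 h, 9.28 and 9.50 at 12 h, 9.48 and 9.47 at 15 h, and 9.83 and 9.61 at 48 h. Its control and 48 h arrays overlapped (0.17 ± 0.13, limma, adjusted p = 0.599). Pold1, the catalytic subunit of the main lagging-strand polymerase, was the 1 member with a negative difference. Its levels were 9.18 and 9.07 on the controls, 9.17 at 4 h, 9.07 at 9 h, 9.01 and 8.87 at 12 h, 8.89 and 9.02 at 15 h, and 9.06 and 9.10 at 48 h, which overlapped (-0.04 ± 0.08, limma, adjusted p = 0.878).

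The 4 genes of nucleotide supply all had positive differences at 48 h, with a median of 0.25. Rrm1, the large subunit of ribonucleotide reductase, which makes deoxyribonucleotides, had the highest. It measured 11.89 and 12.14 on the controls, 11.67 at 4 h, 11.93 at 9 h, 12.05 and 12.10 at 12 h, 12.00 and 12.02 at 15 h, and 12.30 and 12.31 at 48 h, and its 48 h arrays were the highest (0.29 ± 0.08, limma, adjusted p = 0.175). Rrm2, the small subunit, measured 11.94 and 12.22 on the controls, 11.65 at 4 h, 11.98 at 9 h, 11.93 and 12.08 at 12 h, 12.03 and 12.12 at 15 h, and 12.41 and 12.30 at 48 h. The groups did not overlap (0.27 ± 0.10, limma, adjusted p = 0.253). Tyms, which makes thymidylate, had the lowest difference of the role. It measured 10.63 and 10.93 on the controls, 10.46 at 4 h, 10.81 at 9 h, 10.84 and 10.70 at 12 h, 10.72 and 10.70 at 15 h, and 10.99 and 10.96 at 48 h (0.19 ± 0.09, limma, adjusted p = 0.401). For Tyms the 48 h arrays lay just above control replicate 2. Across the 4 roles, the genes whose 48 h arrays overlapped with the controls were Orc4, Cdc7, Dbf4, Pold1, Pole, Rfc4 and Tk1.

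The call for Orc5 was narrow. The 4 h group is 1 array with its own term, so leaving it out repeats the main fit for this comparison. Only the other fits can change the call. When each of the 13 arrays was left out in turn, Orc5 stayed past the threshold only without the 4 h array, with adjusted p between 0.0438 and 0.163 (limma), and in the larger run alone its difference was 0.40 with an adjusted p of 0.186. For several genes that were not called, the size of the 48 h difference moved with 1 control. Without control replicate 1 and without control replicate 2 respectively, it was 0.26 and 0.59 for Orc1, 0.099 and 0.52 for Cdc6, 0.078 and 0.29 for Tyms, and 0.18 and 0.37 for Rrm2. Likewise, it was 0.18 and 0.0029 for Orc4, -0.0345 and 0.13 for Cdc7, and -0.0015 and 0.31 for Pole. For Fen1 it was 0.48 without 48 h replicate 1 and 0.21 without 48 h replicate 2.

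**Figure D2:**
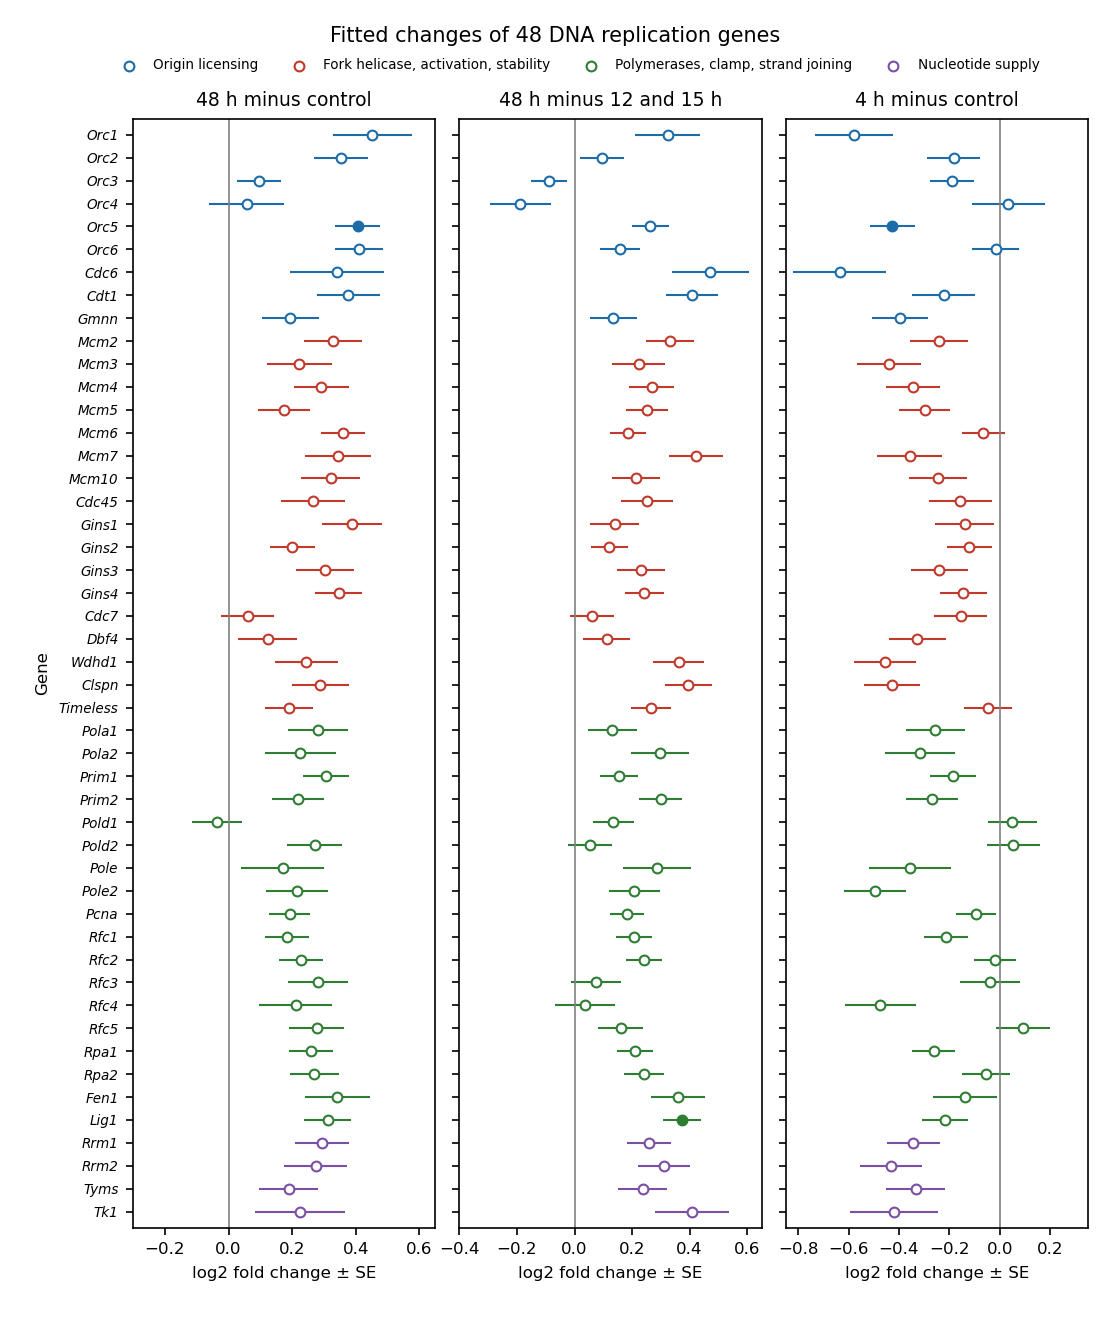
Points give the fitted log2 fold change and lines its standard error for each of the 48 genes, coloured by role, at 48 h against control, at 48 h against the mean of 12 h and 15 h, and at 4 h against control. Filled points passed the threshold, namely Orc5 (0.41), Lig1 (0.37) and Orc5 (-0.43), and most open points of the first and second panel lie right of 0, most of the third left of 0.

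Against the mean of 12 h and 15 h, the replication genes at 48 h were also mostly higher, and here Lig1 passed. The difference was positive for 46 of 48, with a median of 0.23 (1.18-fold) and a range of -0.19 to 0.47, against a median of 0.02 over all genes. The 1 member called higher stands against 0.707% of all genes, with 0 lower against 0.12%. Both 48 h arrays lay above all 4 arrays of 12 h and 15 h for 35 members, where 15.4% of all genes did so, and below them for 0, where 12% did. At an unadjusted p under 0.05, 34 members were higher and 0 lower, where 10.9% of all genes were higher and 7.95% lower. Lig1 rose by 0.37 ± 0.07 (1.30-fold; limma, adjusted p = 0.0330), with 48 h arrays clear of every earlier array of the larger run. The median was 0.28 for nucleotide supply, 0.24 for the helicase genes, 0.21 for the polymerases and 0.16 for licensing. Liver markers were higher in this comparison too, with 11 of 12 past the threshold, and the 16 erythroid markers had a median of 0.36 with none past it.

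The genes next to the threshold in that comparison were of licensing and the fork. Clspn, the fork protein that passes on the checkpoint signal, measured 8.33 and 8.48 on the controls, 7.9996 at 4 h, 8.36 at 9 h, 8.35 and 8.33 at 12 h, 8.32 and 8.29 at 15 h, and 8.83 and 8.60 at 48 h. Levels at 12 h and 15 h were nearly equal, and the 48 h arrays were higher and apart from each other (0.40 ± 0.08 against 12 h and 15 h, limma, adjusted p = 0.0553). Cdt1, the factor that brings the Mcm ring to the origin, measured 9.04 and 9.32 on the controls, 8.96 at 4 h, 9.21 at 9 h, 9.05 and 9.16 at 12 h, 9.19 and 9.22 at 15 h, and 9.67 and 9.45 at 48 h. The 48 h arrays were the highest of the larger run (0.41 ± 0.09, limma, adjusted p = 0.0684). Mcm7, a ring subunit, measured 11.03 and 11.30 on the controls, 10.83 at 4 h, 11.10 at 9 h, 10.95 and 11.16 at 12 h, 11.14 and 11.17 at 15 h, and 11.59 and 11.47 at 48 h, and showed the same order (0.42 ± 0.09, limma, adjusted p = 0.0684). Wdhd1, which links the helicase to the primase polymerase, measured 10.28 and 10.60 on the controls, 9.98 at 4 h, 10.32 at 9 h, 10.29 and 10.37 at 12 h, 10.28 and 10.34 at 15 h, and 10.73 and 10.63 at 48 h. Its 48 h arrays were clear of those of 12 h and 15 h and only just above control replicate 2 (0.36 ± 0.09, limma, adjusted p = 0.0849). The highest difference was that of Cdc6 (0.47 ± 0.13, limma, adjusted p = 0.112). Lower values at 48 h than at 12 h and 15 h were measured for Orc3 (-0.09 ± 0.06) and Orc4 (-0.19 ± 0.11), neither past the threshold.

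**Figure D3:**
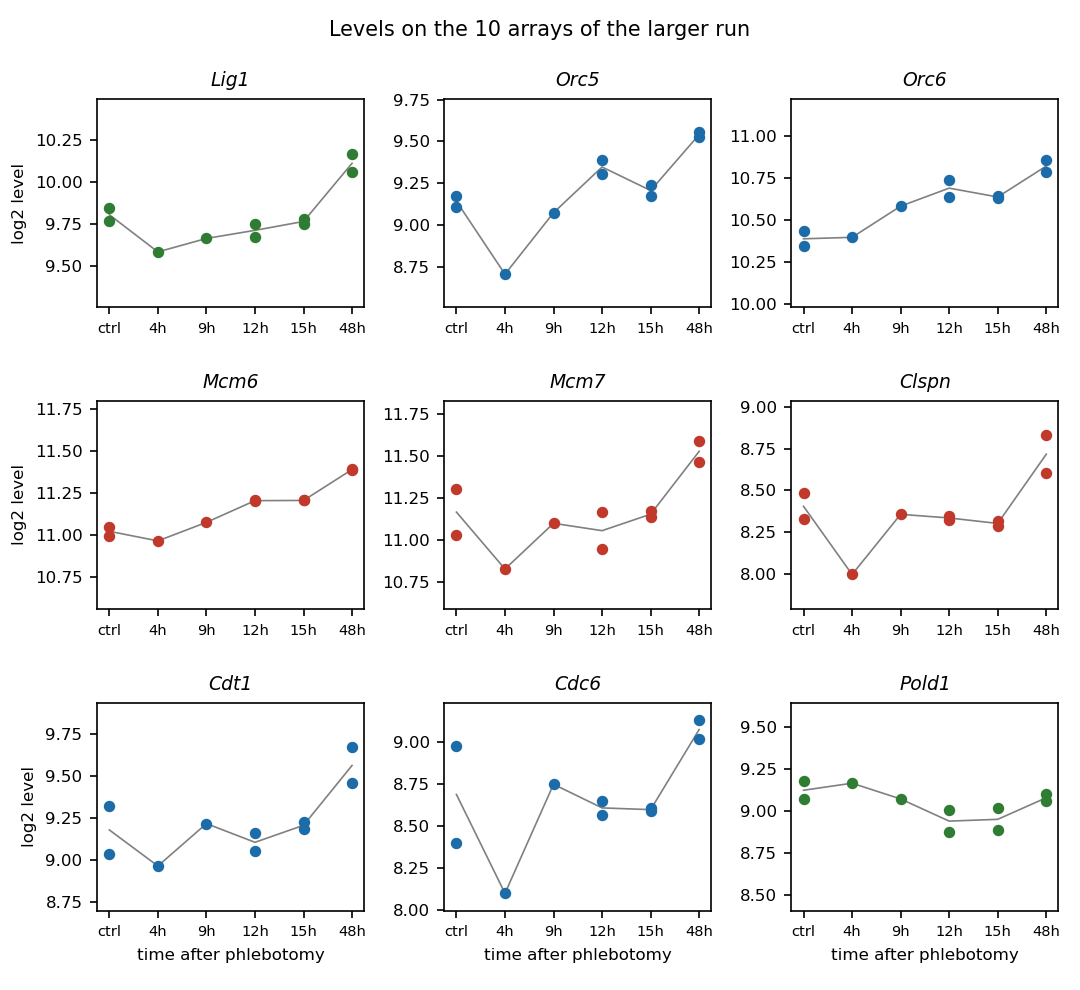
Log2 level (vertical axis) of 9 of the genes on each array of the larger run by hours after phlebotomy (horizontal axis, not to scale); each point is 1 array and the line joins the means. Lig1 stays between 9.58 and 9.84 from control to 15 h and reaches 10.17 and 10.06 at 48 h, Orc6 and Mcm6 are already above control at 12 h and 15 h, and Pold1 shows no 48 h array above its controls' range.

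When 12 h and 15 h were taken apart, no member was called in either direction. Against 12 h alone the median was 0.20, with 0.246% of all genes called higher and 0.0301% lower, and against 15 h alone it was 0.24, with 0.456% called higher and 0.0903% lower (limma). At an unadjusted p under 0.05, 26 members were higher and 1 lower against 12 h, where 9.21% of all genes were higher and 6.36% lower. Against 15 h, 34 were higher and 0 lower, where 9.45% and 7.17% of all genes were. The controls enter this comparison only through the shared estimate of spread. The count of members called changed in every leave-one-out fit except that without the 4 h array, which repeats the main fit. Over all genes, the count called higher went from 141 down to 102 without control replicate 3 or 9 h replicate 3. It was 65 without 9 h replicate 1 and 66 without 9 h replicate 2. Lig1 stayed past the threshold in 4 of the 13 leave-one-out fits, those without control replicate 1, control replicate 2, the 4 h array or 48 h replicate 2, with adjusted p between 0.0164 and 0.303 (limma). The count of members called higher was 18 without control replicate 1, 5 without control replicate 2, 2 without 48 h replicate 2, 1 without the 4 h array and 0 without any of the other 9. The count over all genes, 141 with every array, also moved, to 675 without control replicate 1, 322 without control replicate 2 and 182 without 48 h replicate 2. In the larger run alone the Lig1 difference was 0.37 with an adjusted p of 0.110 (limma) and no member was called.

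Promoters were searched because E2F factors, the main transcription factors of S phase entry, bind a short known sequence. The motifs searched were TTTCCCGC, TTTCGCGC, TTTGCCGC and TTTGGCGC, on both strands, in 300 bases that run from 250 before to 50 after each RefSeq start (build GRCm38.p6). A promoter entry matched for 40 of the 48 genes, and 15 of these 40 (37.5%) held a motif. Among 49 promoters of the members 15 held one (30.61%), against 2.26% of all 32851 promoters and 2.99% of the 19177 promoters of measured genes. The share by role was 4 of 8 for licensing, 6 of 13 for the helicase genes, 5 of 15 for the polymerases and 0 of 4 for nucleotide supply. The other replication and S phase genes held one in 33.33% of promoters and the mitosis genes in 5.0%. Member promoters had a median GC content of 60% and a median of 21 CpG dinucleotides, against 57.3% and 15 for the promoters of measured genes and 52.7% and 7 over all promoters. Mitosis promoters had medians of 58.3% and 24. The motif overlaps itself on opposite strands in some promoters, and a match is only a match of letters. The lines below give matched windows, 5′ to 3′ on the gene's strand, of the 5 genes of smallest p in the comparison of 48 h with 12 h and 15 h among those whose promoter held a motif, with the motif, or its reverse complement, in capitals. They were chosen for holding a motif: of the genes with a smaller p than Cdc6, the listed promoters of Orc5, Wdhd1, Mcm2, Fen1 and Timeless held no match, and Prim2, Rfc2 and Gins4 had no entry.
Lig1: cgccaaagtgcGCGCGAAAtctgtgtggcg
Clspn: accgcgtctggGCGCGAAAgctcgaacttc
Cdt1: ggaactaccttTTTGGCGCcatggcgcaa
Mcm7: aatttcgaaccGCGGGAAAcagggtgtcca
Mcm7: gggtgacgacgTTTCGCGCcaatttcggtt
Cdc6: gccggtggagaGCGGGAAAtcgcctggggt
The Lig1 window lies at chr7:13278841-13278870 on the plus strand, with the motif from base 27 after the start, and the Clspn window at chr4:126556990-126557019 on the plus strand, from base 22. The Cdt1 window is at chr8:122568036-122568064 on the plus strand, from base 33. Mcm7 has windows at chr5:138172030-138172059 and chr5:138171849-138171878 on the minus strand, 1 before the start (from -165) and 1 after it (from 17). The Cdc6 window is at chr11:98908002-98908031 on the plus strand, from -138.

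For a wider view, the 200 bases from -250 to -51 are given for Mcm5 and Mcm6, ring subunits whose motif lies upstream of the start in sequence that overlaps no annotated gene. Mcm5 is at chr8:75109259-75109458 on the plus strand and Mcm6 at chr1:128359756-128359955 on the minus strand (GRCm38.p6), and capitals mark the motif matches, which overlap on opposite strands in both.
Mcm5: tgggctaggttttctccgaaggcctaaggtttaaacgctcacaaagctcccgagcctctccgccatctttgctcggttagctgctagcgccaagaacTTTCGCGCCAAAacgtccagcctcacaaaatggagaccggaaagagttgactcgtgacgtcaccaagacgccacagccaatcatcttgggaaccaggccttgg
Mcm6: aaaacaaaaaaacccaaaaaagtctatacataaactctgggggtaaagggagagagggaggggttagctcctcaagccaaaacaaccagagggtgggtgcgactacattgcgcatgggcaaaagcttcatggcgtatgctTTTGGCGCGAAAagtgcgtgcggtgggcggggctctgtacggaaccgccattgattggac
In Mcm5 the first match begins at -153, and in Mcm6 at -110. The 48 h difference from control was 0.18 ± 0.08 for Mcm5 and 0.36 ± 0.07 for Mcm6, neither past the threshold.

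Between control and 12 h to 15 h the replication genes as a whole were near their baseline. The mean of 12 h and 15 h minus control was positive for 27 and negative for 21 of the 48, with a median of 0.01 and a range of -0.18 to 0.26, against a median of -0.01 over all genes. No member was called in limma, where 0.572% of all genes were called higher and 0.11% lower, and at an unadjusted p under 0.05 there were 10 higher and 1 lower, where 8.65% of all genes were higher and 6.8% lower. All 4 arrays lay above both controls of the larger run for 10 members, where 12% of all genes did so, and below for 2, where 10.2% did. Licensing genes had a median of 0.14 with 7 of 9 positive, against 0.01 for the helicase genes, 0.01 for the polymerases and -0.04 for nucleotide supply. The 6 genes of smallest p were Orc6, Orc2, Orc3, Gins1, Mcm6 and Pold2, each with every 12 h and 15 h array above both controls of the larger run. The difference was 0.25 ± 0.06 for Orc6 (limma, adjusted p = 0.114), 0.25 ± 0.08 for Gins1 (adjusted p = 0.199) and 0.18 ± 0.06 for Mcm6 (adjusted p = 0.209). Orc2, an origin recognition subunit, measured 9.55 and 9.74 on the controls, 9.47 at 4 h, 9.91 at 9 h, 9.96 and 9.89 at 12 h, 9.90 and 9.90 at 15 h, and 9.93 and 10.08 at 48 h. From 9 h to 48 h its level ran between 9.89 and 10.08, above both controls (0.26 ± 0.07 for 12 h and 15 h against control, limma, adjusted p = 0.145). Orc3, of the same complex, measured 10.25 and 10.24 on the controls, 10.06 at 4 h, 10.25 at 9 h, 10.37 and 10.42 at 12 h, 10.41 and 10.52 at 15 h, and 10.31 and 10.38 at 48 h. Its 12 h and 15 h arrays overlapped with those of 48 h and lay above the controls (0.19 ± 0.06, limma, adjusted p = 0.196). Taken apart, 12 h minus control had a median of 0.04 with 30 positive, and 15 h minus control a median of -0.00 with 24 positive. None was called in either, where 0.0853% of all genes were called higher and 0.0201% lower at 12 h, and 0.211% higher and 0.0451% lower at 15 h (limma). At an unadjusted p under 0.05, 9 members were higher and 1 lower at 12 h, and 5 higher and 0 lower at 15 h. Over all genes, 7.63% were higher and 6.08% lower at 12 h, and 7.23% higher and 5.31% lower at 15 h.

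At 9 h the differences from control were spread around 0. They were positive for 22 members and negative for 26, with a median of -0.00 and a range of -0.23 to 0.28, and 0 were called, where 0.0502% of all genes were called higher and 0.0451% lower (limma). At an unadjusted p under 0.05, 2 were higher and 1 lower, where 3.64% of all genes were higher and 2.48% lower. The 9 h time is the only one with arrays in both runs. Within the larger run 24 genes were above and 24 below the mean of the controls, and within the smaller run 13 were above and 24 below its control, the others being equal, with a median of 0.0 in each. The larger run holds only 1 array at 9 h. In the smaller run 10 of the 48 genes had 1 value on all 3 arrays, so their difference there could only be 0. The 2 medians therefore do not show that the runs agree. Pold2, an accessory subunit of the lagging-strand polymerase, measured 9.93 and 9.997 on the controls of the larger run, 10.07 at 4 h, 10.39 at 9 h, 10.13 and 10.21 at 12 h, 10.30 and 10.27 at 15 h, and 10.25 and 10.31 at 48 h. In the smaller run it measured 10.94 on the control and 11.11 and 11.04 at 9 h. At 9 h it was above control in both runs (0.28 ± 0.08, limma, adjusted p = 0.472). It was also above control at 12 h and 15 h, which have arrays in the larger run only (0.22 ± 0.07, limma, adjusted p = 0.209). Orc2 in the smaller run measured 10.28 on the control and 10.46 and 10.55 at 9 h (0.24 ± 0.08, limma, adjusted p = 0.645). Prim2, the large subunit of primase, measured 10.12 and 10.18 on the controls of the larger run, 9.85 at 4 h, 9.82 at 9 h, 10.07 and 10.07 at 12 h, 9.96 and 10.04 at 15 h, and 10.34 and 10.32 at 48 h. It measured 10.85 on the control of the smaller run and 10.65 and 10.81 at 9 h, below control in both runs (-0.23 ± 0.07, limma, adjusted p = 0.692).

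On the single 4 h array most of the replication genes were low. The difference from control was negative for 44 of 48, with a median of -0.24 (0.846-fold) and a range of -0.64 to 0.09, and 37 of the 48 had their lowest value of the larger run on that array, where 14.1% of all genes did. Orc5 fell by 0.43 on the log2 scale (SE 0.09, 0.744-fold; limma, adjusted p = 0.0339), the 1 member called lower, where 0.251% of all genes were called lower and 1.74% higher. At an unadjusted p under 0.05, 22 members were lower and 0 higher, where 7.21% of all genes were lower and 8.02% higher. The median was -0.38 for nucleotide supply, -0.24 for the helicase genes, -0.22 for licensing and -0.20 for the polymerases. Pole2, an accessory subunit of the leading-strand polymerase, measured 9.26 and 9.59 on the controls, 8.96 at 4 h, 9.54 at 9 h, 9.51 and 9.49 at 12 h, 9.43 and 9.41 at 15 h, and 9.66 and 9.68 at 48 h. Its 4 h value was below every other array of the larger run (-0.50 ± 0.12, limma, adjusted p = 0.0766), and so was that of Clspn (-0.43 ± 0.11, adjusted p = 0.0951). The size of the difference was highest for Cdc6 (-0.64 ± 0.18, limma, adjusted p = 0.132). The 4 h group is 1 array, which is assumed to vary like the other groups, and intestine and muscle markers were higher on it than on any other array of the larger run. Of the 15 small intestine genes 14 rose on it, with a median of 3.90, and none of 12 muscle genes passed. The erythroid markers were lower on it too, with all 16 differences negative, a median of -0.36 and none past the threshold, and mitosis genes had a median of -0.27. Their part in the result was not tested. The Orc5 call was lost without control replicate 2, control replicate 3 or any 9 h array, and the count of members called lower was 17 without control replicate 1, where the count over all genes went from 50 to 566.

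Set directly against the 4 h array, a contrast chosen after the values were seen, 48 h was higher for 30 of the 48 genes in limma and lower for 0, where 2.92% of all genes were called higher and 2.63% lower. The median difference was 0.52, against 0.02 over all genes, and the 30 called differences ran from 0.40 to 1.03. They comprised 7 of 9 licensing genes, 12 of 17 helicase genes, 8 of 18 polymerase genes and 3 of 4 nucleotide supply genes. Orc5 differed by 0.83 ± 0.09 (adjusted p = 0.000279), Orc1 by 1.03 ± 0.16 (adjusted p = 0.00418) and Clspn by 0.72 ± 0.12 (adjusted p = 0.00536). The count of members was 12 in the larger run alone (0.702% of all genes), 14 without 48 h replicate 1 (0.948%), 18 without 48 h replicate 2 (1.8%) and 0 with no term for the run (0.0401%). It was 36 without control replicate 1 (5.1%), and 40 both with centred arrays (5.82%) and with array weights (8.71%). Since the genes had already been seen high at 48 h and low on the 4 h array, this contrast restates those values and is no independent support. Both the liver transcripts of the 48 h arrays and the intestine transcripts of the 4 h array lie within this contrast, and their part was not tested.

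The other genes of the pathway had medians of the same sign as the 48 genes in both 48 h comparisons and at 4 h. Of 57 measured genes of S phase and replication outside the 48, such as regulators, repair and histone chaperone genes, 0 were called at 48 h against control (limma), 54 were positive and the median was 0.15. The smallest p belonged to Nasp, a histone chaperone (0.38 ± 0.09, adjusted p = 0.124), Rif1, which controls the timing of origins (0.29 ± 0.07, adjusted p = 0.144), and Ccne1, the cyclin of S phase entry (0.32 ± 0.08, adjusted p = 0.144). Against 12 h and 15 h, 48 were positive, 0 were called and the median was 0.17, and the smallest p belonged to Chtf18, a clamp loader subunit (0.36 ± 0.08, adjusted p = 0.0684), E2f1 (0.41 ± 0.09, adjusted p = 0.0739) and Donson, which helps to assemble the helicase (0.35 ± 0.08, adjusted p = 0.0795). At 4 h, 50 of the 57 were negative with a median of -0.20, and 2 fell: Atad5, which unloads the clamp (-0.61 ± 0.13, limma, adjusted p = 0.0317), and Dtl, an adaptor for destroying Cdt1 (-0.57 ± 0.13, adjusted p = 0.0482). The 21 mitosis genes, used as a neighbouring stage of the cell cycle, had a median of 0.14 at 48 h against control with 20 positive, and 0.20 against 12 h and 15 h with 21 positive, and none was called in either.

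Averaged over all 48 genes and set against the controls of the larger run, the difference was -0.08 and 0.08 on the controls themselves, -0.24 at 4 h, 0.01 at 9 h, 0.06 and 0.06 at 12 h, 0.01 and 0.04 at 15 h, and 0.27 and 0.25 at 48 h. All the other arrays thus lay below those of 48 h and above that of 4 h. The mitosis genes spread more widely on the controls, at -0.14 and 0.14, and measured 0.17 and 0.12 at 48 h, so that their controls and 48 h arrays overlapped. Erythroid markers overlapped as well: their mean level was 11.19 and 11.69 on the controls, 11.09 at 4 h, and 11.84 and 11.67 at 48 h. Their part in the replication result was not tested.

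**Figure D4:**
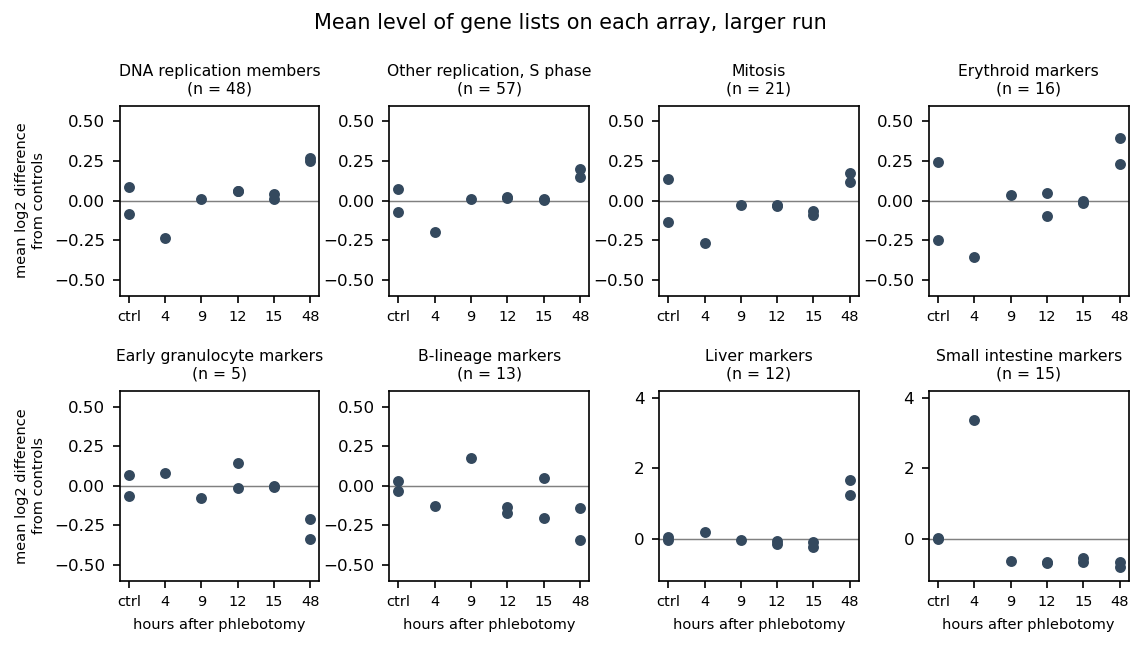
Mean log2 difference from the controls of the larger run (vertical axis, with a wider scale for liver and small intestine) for each of 8 gene lists on each of the 10 arrays of that run, by hours after phlebotomy (horizontal axis, not to scale). The replication genes stand at 0.27 and 0.25 on the 48 h arrays and at -0.24 on the 4 h array, while liver markers are high on the 48 h arrays and small intestine markers on the 4 h array.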

How the data were processed

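RNA of 13 bone marrow samples was hybridised to 1-colour arrays. The deposited values are log2 levels that the authors made with RMA, which corrects background, normalizes across arrays and summarises probes, per the submitters' processing notes; no version of it was named there. Of 35557 probe sets, 21789 had 1 gene symbol, 1621 several and 12147 none listed. Symbols of 21698 were updated through Entrez identifiers, leaving 19938 genes after the probe set with the highest mean was kept for each; 999 genes had several. No filter on level was used. limma 3.58.1 in R 4.3.3 fitted the 6 groups and the run of title numbers to all 13 arrays (6 residual degrees of freedom, 4.62 prior), with Benjamini-Hochberg adjustment over all genes and a threshold of 0.05. The alternatives tried changed the run term, the arrays, the groups fitted, the scaling, the filter on dim genes and the fit. Arrays have no read depth; their number limits the precision. Replicates were numbered in accession order and pair nothing.

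The members and lists were chosen with earlier results of these data known. Values on every array of the larger run were given for members chosen by rule. These were the 6 of smallest p in each of the 2 comparisons of 48 h and in 12 h and 15 h against control. Added to them were the 3 of smallest p at 9 h and 4 h, and the highest and lowest member of each role at 48 h. Mcm2, Pcna, Cdc6, Pole and Rrm2 were fixed by name. Among the members, levels of the smaller run were printed only for Orc5, Lig1, Pold2, Orc2 and Prim2. The motif and promoter counts, and the figures, were made in Python 3.11.15 with matplotlib 3.10.9. Not used in the tests of the report were the other probe sets of Pcna and Tk1: at 48 h against control they differed by 0.19 for Pcna (0.19 for the probe set used) and 0.31 for Tk1 (0.24), over the larger run.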

Additional observations from a re-analysis of the deposited data

Results flagged for a closer look

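For Lig1 the response at 48 h differed from that at 12 h and 15 h by a direct test: the difference between the times was 0.37 (SE 0.07; limma, adjusted p = 0.0330). The test passed in 4 of the 13 fits that left out 1 array, and not in the larger run alone. The passing fit without the 4 h array, a group of 1, only repeats the main fit.

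Between the late and the earliest time, 30 of the 48 replication genes were higher at 48 h than on the 4 h array, a group of 1, where 2.92% of all genes were. The contrast was chosen after the values were seen and is no independent support.

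A signal outside the main measurement appeared in genes of other tissues. Alb, the serum protein made by hepatocytes, measured 11.69 and 11.44 on the 48 h arrays against 6.87 and 7.23 on the controls of the larger run, a difference of 4.66 (SE 0.54; limma, adjusted p = 0.00381), and it was also at 9.68 on 9 h replicate 1 against 7.74 on the control of the smaller run. Reg3g, an antimicrobial lectin of the intestine, measured 12.32 on the 4 h array against 7.61 and 7.54 on the controls, a difference of 4.73 (SE 0.13; limma, adjusted p = 8.43e-09), and 5.17 to 6.11 on the other arrays of the larger run. Without the 4 h array and 9 h replicate 1 together, an alternative chosen after seeing the data, 0 members were called at 48 h in either comparison. Leaving out the 4 h array changes nothing there, so this repeats the fit without 9 h replicate 1. Against 12 h and 15 h, the count over all genes called higher went from 141 to 65. Most other fits without 1 array also lost the calls.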

How the results depend on the processing

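No paired analysis was possible because the replicate numbers follow accession order and the labels pair no samples. Leaving out the term for the run moved all genes together, so the values under it are to be read against the median of all genes. The members' median was then -0.0081 at 48 h against control (all genes -0.244), -0.25 for 12 h and 15 h against control (all genes -0.265), 0.27 at 9 h (all genes 0.268) and -0.51 at 4 h (all genes -0.261). No member was called in either 48 h comparison (0 higher) or at 4 h (0 lower). The 48 h difference from control became -0.016 for Lig1, -0.30 for Orc4, -0.15 for Cdc7, -0.035 for Fen1, -0.014 for Tyms, -0.025 for Cdc6 and -0.12 for Pole. It became -0.0575 for Orc3, -0.022 for Gins1, -0.072 for Mcm6 and -0.061 for Pold2 at 12 h and 15 h, and 0.043 for Prim2 at 9 h. Centring each array gave a median of -0.32 at 4 h. The counts of members below are to be read against those over all genes, which moved too. At 48 h against control, genes called higher went from 65 to 7 with no run term and 118 with the run as a random block. Against 12 h and 15 h they went from 141 to 11 and 326 in those fits. At 4 h, genes called lower went from 50 to 835 with array weights. Without control replicate 1, genes called higher went from 49 to 173 against 12 h and from 91 to 430 against 15 h. Members called higher at 48 h against control (1) numbered 2 with the run as a random block, 3 with a trended, robust fit, and 0 in the larger run alone, with the compared groups alone, without the dimmest genes, after quantile normalization, with array weights, and without the 4 h array and 9 h replicate 1. Against 12 h and 15 h (1) they numbered 4 with the block and with the trended fit, 1 with the compared groups alone (Cdc6 in place of Lig1), and 0 in the larger run alone, with array weights and without both those arrays; against 12 h alone (0) the trended fit called 1. Members called lower at 4 h (1) numbered 0 in the larger run alone and with the compared groups alone, and 17 with array weights. With 1 array left out, members called higher ranged from 0 to 1 at 48 h against control, 0 to 18 against 12 h and 15 h, 0 to 4 against 12 h and 0 to 8 against 15 h, and members called lower from 0 to 2 at 12 h and 15 h, 0 to 1 at 15 h and 0 to 17 at 4 h. The median ranged from 0.21 to 0.32 at 48 h against control, 0.20 to 0.25 against 12 h and 15 h, -0.065 to 0.078 for 12 h and 15 h, -0.04 to 0.10 for 12 h, -0.06 to 0.07 for 15 h, -0.05 to 0.02 for 9 h and -0.27 to -0.19 for 4 h. Single genes that crossed 0 at 48 h ranged from -0.0345 to 0.13 (Cdc7), -0.0687 to 0.0091 (Pold1) and -0.0015 to 0.31 (Pole). The cause was not tested.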
